A study of Mus musculus with 8 samples.

Results

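33 genes of the integrated stress response and of tRNA charging were followed in leukemic stem cells (LSCs): Atf4 and 5 of its effectors, 5 serine and one-carbon enzymes, 2 proline synthesis enzymes and 20 genes of cytosolic tRNA synthetases. They were taken by symbol from the 15576 genes of the count table, and all 33 were found there. The LSCs came from the bone marrow of C57BL/6 mice of the double transgenic BCR-ABL×SCL-tTA model of chronic myeloid leukemia (CML). Withdrawal of tetracycline switches on BCR-ABL in cells where the SCL promoter is active, so both groups carried the oncogene and no mice without it were used in the comparison. The 4 CML libraries were from untreated mice. The 4 CML-TKI libraries were from mice given the tyrosine kinase inhibitor imatinib by gavage on alternate days, at 400 mg/kg according to the sample labels, which state both 4 weeks and 30 days of treatment. The study's methods give this dose or a lower one, and its legend on the LSC RNA-seq gives the lower, so the dose is uncertain. The ages of the mice, and whether each library came from its own mouse, are not given in the sources used here, so p-values measure only the spread between these libraries, which may be partly technical. The labels give 1 gate for all 8 libraries, lineage-negative Sca1+ cKit+ Flt3- CD150- CD48+, whereas legends of the study give LSCs as CD150+ CD48-. The CML column that carries a number no label gives is called CML 5.

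The integrated stress response is the program by which a cell slows protein synthesis and raises a set of amino acid genes when amino acids run short, proteins misfold, heme is lacking or double-stranded RNA appears. Each of these stresses activates a kinase of the translation factor eIF2, and phosphorylated eIF2 lowers initiation at most mRNAs while favouring translation of ATF4. ATF4 is a transcription factor whose targets include asparagine synthetase, the serine and proline synthesis enzymes, amino acid transporters and many cytosolic tRNA synthetases, the enzymes that load amino acids onto tRNAs. Because ATF4 is controlled largely through translation, its targets are commonly read along with its own mRNA. In the hematopoietic stem cell compartment the pathway is known for setting how cells respond to amino acid shortage and misfolded protein.

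Library totals ranged from 4939644 to 8620101 estimated counts in CML and from 1041552 (CML-TKI 3) to 5104268 (CML-TKI 1) in CML-TKI, and 3 counts, used as the floor, stood for up to 0.580 TMM-normalized CPM in CML and up to 3.29 CPM in CML-TKI 3. Floors cover counting error only. CML 1 to 3 were much more alike than any other libraries of 1 group, although they differed by more than sampling noise (chi-square per degree of freedom 3.58 to 4.75, against at least 23.8 for every other pair within a group). CML-TKI 1 stood apart from CML-TKI 2 to 4 on the first principal component of all genes tested, at -19.2 between the CML libraries (-74.4 to -69.3) and the others (70.1 to 118.8). Markers of other cells moved with treatment. Summed over 11 granulocyte genes the level was 163 to 267 CPM in CML, 1463 CPM in CML-TKI 1 and 7929 to 8410 CPM in CML-TKI 2 to 4, over 7 monocyte and macrophage genes 13.5 to 27.1, 725 and 2178 to 3965 CPM, and over 10 HSC genes 1458 to 2026, 523 and 59.8 to 156 CPM. Of these, 10 of 11, 7 of 7 and 0 of 10 genes were called higher and 0, 0 and 5 lower, and none of the genes on these 3 lists was at 0 in every library of a group. Slamf1 (CD150) and Kit were lower in CML-TKI LSCs and Cd48 was higher (log2 fold changes -3.42, -1.92 and 4.35, adjusted p = 0.00797, 0.000870 and 0.000870 by edgeR with Benjamini-Hochberg adjustment). The CML libraries had 37.7, 31.5, 31.3 and 29 CPM of Slamf1 and 6.40, 5.79, 3.86 and 4.12 CPM of Cd48, which goes against the labelled CD150- CD48+ gate. The CML-TKI libraries had 4.56, 0.620, 6.58 and 1.56 CPM of Slamf1 and 39.9, 178, 97.5 and 97.6 CPM of Cd48, which goes against the CD150+ CD48- definition in the legends. LSC is therefore used here as the study's name for both groups. In such bulk samples, fewer cells of a type and less RNA per cell cannot be told apart, and the part of cell makeup in the results that follow was not tested.

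Across the pathway, 4 members rose in CML-TKI LSCs and none fell at an adjusted p under 0.05 (quasi-likelihood F test of edgeR, Benjamini-Hochberg adjusted over 11937 genes). Before adjustment, 9 were higher and 2 lower at p under 0.05, beside 13.7% and 12.1% of all genes tested. DESeq2 called 6 higher and 2 lower, beside 9.89% and 8.60%, and limma-voom 4 and 2, beside 10.5% and 11.0%. The members that rose were Mthfd2, a mitochondrial folate enzyme, and the tRNA synthetase genes Cars, Nars and Farsb. Of the 33 members, 32 passed the filter on low counts, and Chac1 did not. The 4 higher calls by edgeR are 4 of 32 beside 6.29% of all genes tested, and the absence of lower calls stands beside 3.93%. Changes are given as log2 fold change ± standard error. The median over the 32 members was 0.42, against -0.00026 over all genes tested, with 22 positive and 10 negative values. Without overlap between the groups, 6 members were higher in every CML-TKI library (Psat1, Mthfd2, Cars, Nars, Tars and Farsb) and 3 were lower in every one (Aldh18a1, Vars and Wars), beside 10.3% and 13.1% of all genes tested. With CML 1 to 3 summed to 1 library, 0 members were called, in a fit that called only 102 of all genes tested higher and 20 lower. The calls of Cars, Nars and Farsb were also lost in several of the fits that left out 1 library.

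**Figure D1:**
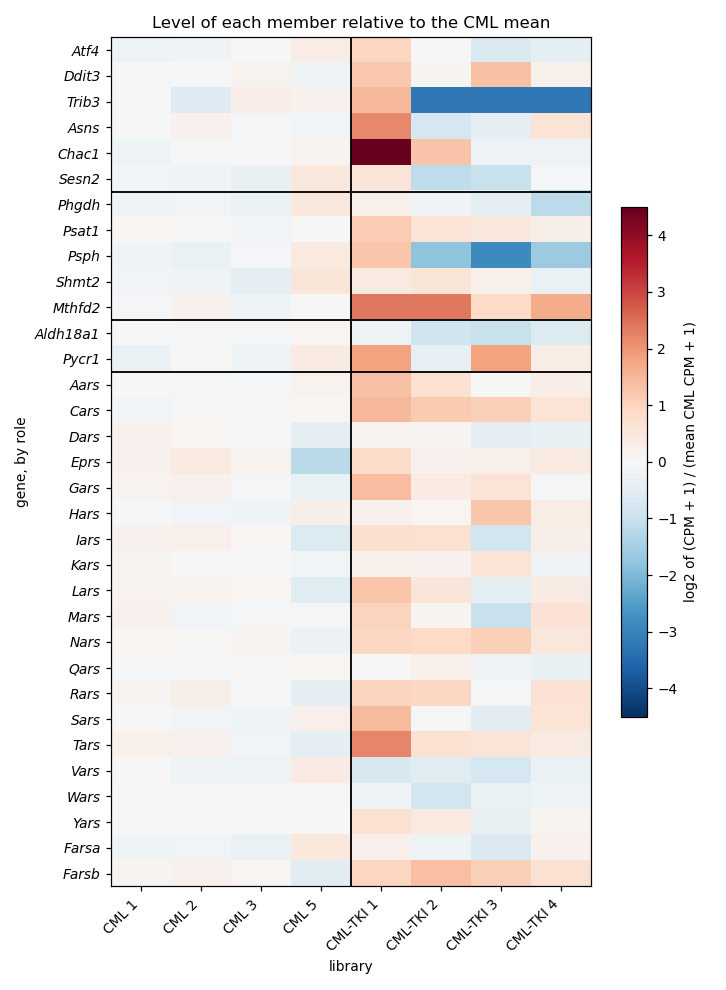
Level of each of the 33 members (rows, grouped by role with Atf4 and its effectors first and the tRNA synthetases last) in each of the 8 libraries (columns), as log2 of CPM + 1 over the mean CML CPM + 1. The column of CML-TKI 1 is red for most members, including Chac1, Trib3 and Psph, which are blue or pale in CML-TKI 3 and 4, whereas Mthfd2, Cars, Nars and Farsb are red in all 4 CML-TKI libraries.

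Another feature of these genes was the unequal spread within CML-TKI LSCs, and CML-TKI 1 was singled out after its values were seen. 18 of the 32 members tested had their highest level of all 8 libraries in CML-TKI 1, beside 16.1% of all genes tested, and the median ratio of CML-TKI 1 to the mean of CML-TKI 2 to 4 was 1.54 over the members and 1.03 over all genes. The members at their highest there were 4 of the 5 tested in the ATF4 group, 3 of 5 serine and one-carbon enzymes, 0 of 2 proline enzymes and 11 of 20 synthetases. CML-TKI 1 also lay nearest to CML in its granulocyte, monocyte and HSC markers. It had 14744 genes with a count, against 14425 to 14629 in CML and 11835 to 12614 in CML-TKI 2 to 4, and Rn45s, a ribosomal RNA gene, held 17.2% of its counts, 20.2 to 38.3% in CML and 9.23 to 22.5% in CML-TKI 2 to 4. The part of these in its stress response levels, and in the genes without a count in CML-TKI 2 to 4, was not tested.

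Atf4 and its effectors gave no call by edgeR in either direction, beside 6.29% of all genes tested called higher and 3.93% lower. Of the 5 tested, 0 had an unadjusted p under 0.05, and the median log2 fold change was 0.13. DESeq2 gave no call either and limma-voom called Trib3 lower, and without CML-TKI 1 the median was -0.33. Atf4 itself had 105, 109.8, 123 and 158 CPM in CML 1, 2, 3 and 5. It had 245, 125, 77.8 and 93.4 CPM in CML-TKI 1 to 4. Only CML-TKI 1 was above every CML library, and the groups overlapped (log2 fold change 0.13 ± 0.35, adjusted p = 0.854 by edgeR with Benjamini-Hochberg adjustment), and the sign turned to -0.33 without CML-TKI 1. Ddit3, which encodes CHOP, a transcription factor that promotes cell death under lasting stress, was low in every library, with 2.59, 2.51, 2.90 and 2.06 CPM in the CML libraries and 7.22, 2.79, 7.67 and 3.12 CPM in the CML-TKI libraries. CML-TKI 1 and 3 held the high values of this gene (log2 fold change 1.01 ± 0.61, adjusted p = 0.331). Sesn2, a leucine sensor that restrains mTORC1, had 13.1, 12.5, 11.2 and 20.3 CPM in the CML libraries and 22, 5.89, 6.58 and 13.8 CPM in the CML-TKI libraries, with overlapping groups (adjusted p = 0.83 at a log2 fold change of -0.21).

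In Chac1, Trib3 and Asns, CML-TKI 1 was above every other library. Chac1, an enzyme that breaks down glutathione, had 0, 1, 1 and 2 counts in CML 1, 2, 3 and 5 and 138, 6, 0 and 0 counts in CML-TKI 1 to 4. As CPM this was 0, 0.193, 0.193 and 0.275 CPM in CML and 26.2, 1.86, 0 and 0 CPM in CML-TKI. The level in CML-TKI 1 was at least 45.2-fold higher than the floor of 3 counts per library in CML, and at least 7.97-fold higher than that of CML-TKI 3 and 4. Trib3, a pseudokinase induced by ATF4 that feeds back on the response, had 8.17, 5.21, 10.4 and 9.76 CPM in the CML libraries and 24.9, 0, 0 and 0 CPM in the CML-TKI libraries. It was split within the treated group, highest of all in CML-TKI 1 and without a count in the other three, where 0 counts allow up to 0.930, 3.29 and 0.780 CPM. The test over all 8 libraries gave no call (log2 fold change -0.33 ± 1.38, adjusted p = 0.910), and without CML-TKI 1 Trib3 was lower in CML-TKI LSCs (adjusted p = 0.00378), with the CML mean at least 2.55-fold above the floor. Asns, asparagine synthetase, had 42.5, 48.6, 39.4 and 39 CPM in the CML libraries, and 195, 24.8, 30.7 and 66.1 CPM in the CML-TKI libraries. CML-TKI 2 and 3 were below every CML library, and CML-TKI 1 and 4 above every one (log2 fold change 0.92 ± 0.57, adjusted p = 0.349). Without CML-TKI 1 the log2 fold change of Asns was -0.05 (adjusted p = 0.938).

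**Figure D2:**
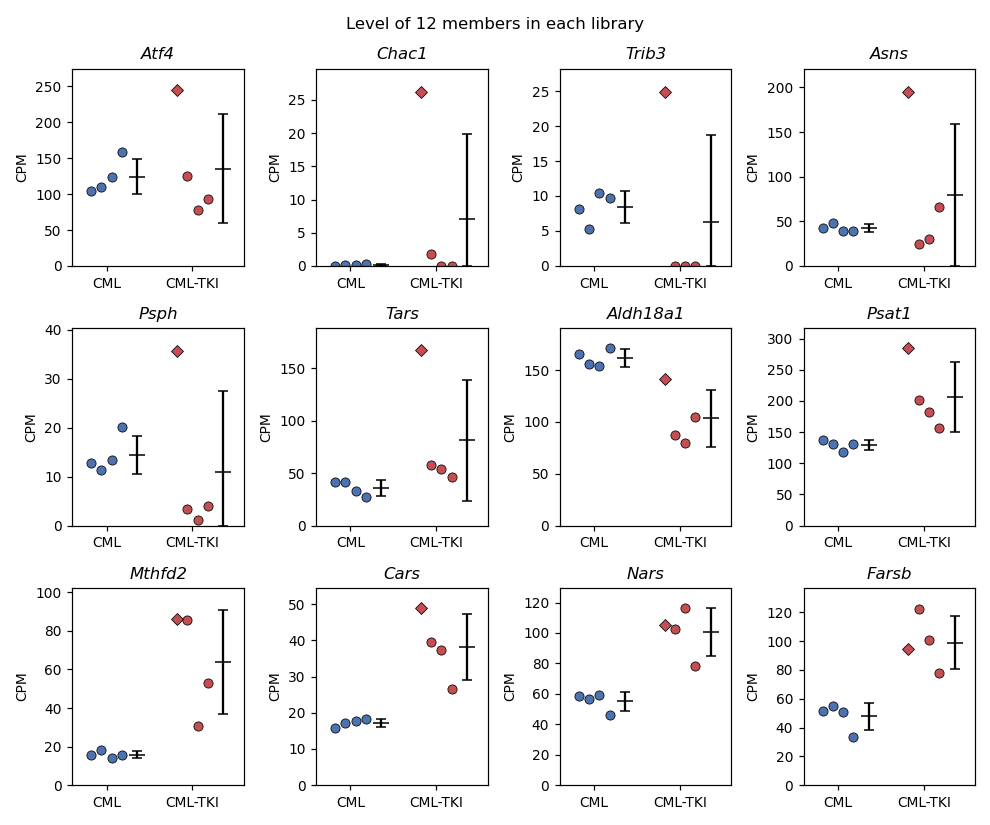
Level (CPM) of 12 members in each CML (blue) and CML-TKI (red) library, with CML-TKI 1 as a diamond, and beside each group its mean and SD (n = 4), drawn down to 0 where the SD exceeds the mean. In Chac1, Trib3, Asns, Psph and Tars the diamond lies apart from the other CML-TKI libraries, while in Mthfd2, Cars, Nars and Farsb every red point is above every blue point.

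Other targets of ATF4 that are not among the 33 members were read from lists of the pathway. Of 15 further transcription factors and targets tested, 3 rose and none fell, and of 9 amino acid transporters none rose and 1 fell, beside 6.29% of all genes tested called higher and 3.93% lower. Without CML-TKI 1 these were 4 and 0, and 0 and 2, beside 9.64% and 11.0%. Several genes of these lists and of the list of other serine, glycine and one-carbon enzymes, chosen after their values were seen, had the pattern of Chac1 and Trib3. Aldh1l2, the only one of them from the latter list, did not pass the filter on low counts and was not tested. Aldh1l2, the mitochondrial formyl-tetrahydrofolate dehydrogenase, was listed at 0, 0.193, 0.386 and 0.412 CPM in CML and 212, 0, 2.19 and 0 CPM in CML-TKI, so CML-TKI 1 was at least 366-fold above the floor of the CML libraries and at least 64.5-fold above that of CML-TKI 2 to 4. Gpt2, mitochondrial alanine aminotransferase, had 7.76, 8.49, 7.54 and 8.66 CPM in the CML libraries and 146, 8.99, 1.10 and 1.04 CPM in the CML-TKI libraries (adjusted p = 0.277 at a log2 fold change of 2.31 by edgeR). The glycine transporter gene Slc6a9 had 2.59, 2.12, 4.06 and 2.61 CPM in the CML libraries and 65.5, 3.41, 6.58 and 2.86 CPM in the CML-TKI libraries (adjusted p = 0.107 at a log2 fold change of 2.81). In both genes CML-TKI 1 was far above every other library, and neither passed the test. Without CML-TKI 1 the log2 fold changes were -1.03 for Gpt2 and 0.50 for Slc6a9 (adjusted p = 0.383 and 0.623). Ddit4, an inhibitor of mTORC1 signaling, had 104, 6.51, 1.10 and 6.76 CPM in the CML-TKI libraries, against 12.9, 12.2, 13.3 and 31.1 CPM in the CML libraries (adjusted p = 0.667 at a log2 fold change of 0.81). Slc1a4, a carrier of small neutral amino acids, had 57.5, 0.930, 1.10 and 3.12 CPM in the CML-TKI libraries, against 11.7, 11, 12.6 and 20.6 CPM in the CML libraries (adjusted p = 0.923 at a log2 fold change of 0.22). For Ddit4 and Slc1a4, CML-TKI 1 was above and CML-TKI 2 to 4 were below every CML library. Without CML-TKI 1 the log2 fold change of Ddit4 was -1.72 (adjusted p = 0.0743), and Slc1a4 was called lower, at -2.89 (adjusted p = 0.0100).

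**Figure D3:**
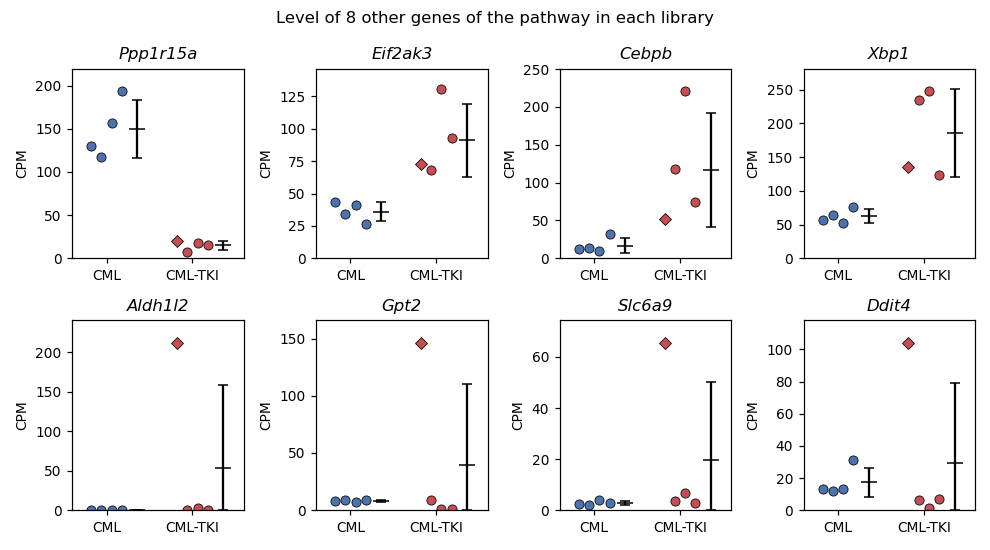
Level (CPM) of 8 further genes of the pathway in each CML (blue) and CML-TKI (red) library, with CML-TKI 1 as a diamond and the mean and SD of each group (n = 4), drawn down to 0 where the SD exceeds the mean. The upper row shows 4 genes that differed between the groups with no overlap, and the lower row 4 genes, chosen after their values were seen, that were high in CML-TKI 1 alone.

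Upstream of ATF4, 1 of 17 tested genes of the eIF2 kinases, eIF2, the exchange factor eIF2B and the eIF2 phosphatase rose and 1 fell, shares near those over all genes tested (6.29% and 3.93%). Ppp1r15a, which encodes GADD34, the stress-induced subunit that directs dephosphorylation of eIF2, had 130.5, 118, 157 and 194 CPM in CML 1, 2, 3 and 5. It had 19.8, 7.44, 17.5 and 15.6 CPM in CML-TKI 1 to 4. The groups were far apart and CML-TKI 1 lay with the rest of its group (log2 fold change -3.32 ± 0.34, adjusted p = 0.000782 by edgeR with Benjamini-Hochberg adjustment). The call held with each library left out in turn and with CML 1 to 3 summed. On a list of 9 immediate early and heat shock genes, the 6 immediate early genes also fell and the heat shock genes Hspa1a and Hspa1b rose (log2 fold changes 4.13 and 4.08), while the heat shock gene Dnajb1 was not called (-0.043, adjusted p = 0.928). The summed level of the 9 was 1472 to 2332 CPM in CML and 519 to 943 CPM in CML-TKI. The part of this in the Ppp1r15a result was not tested. Eif2ak3, the kinase PERK of the endoplasmic reticulum, had 43.3, 34, 40.8 and 26.3 CPM in the CML libraries and 72.9, 68.2, 130.4 and 92.6 CPM in the CML-TKI libraries, without overlap (log2 fold change 1.33 ± 0.28, adjusted p = 0.0161). Its call was lost without CML 2 (adjusted p = 0.062). The kinases Eif2ak1 (HRI), Eif2ak2 (PKR) and Eif2ak4 (GCN2) were not called (log2 fold changes 0.89, -0.32 and -0.51, adjusted p = 0.0795, 0.746 and 0.229), nor was Ppp1r15b, the constitutive phosphatase subunit (adjusted p = 0.248 at a log2 fold change of 0.38).

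The 3 further factors that rose were Cebpb, Xbp1 and Cebpg. Cebpb, a bZIP factor that pairs with ATF4 and also acts in myeloid differentiation, had 12.5, 12.9, 9.28 and 31.6 CPM in the CML libraries and 52.4, 118, 221 and 74.7 CPM in the CML-TKI libraries (log2 fold change 2.79 ± 0.54, adjusted p = 0.0110). Xbp1, the factor of the IRE1 branch of the unfolded protein response, had 57.1, 63.9, 52 and 76.3 CPM in the CML libraries and 136, 234, 249 and 124 CPM in the CML-TKI libraries (log2 fold change 1.57 ± 0.28, adjusted p = 0.00847). In both genes all 4 CML-TKI libraries exceeded all CML libraries, as did the granulocyte and monocyte marker sums, whose part in these changes was not tested. Cebpg, a smaller bZIP partner of ATF4, had 53.2, 58.7, 46.6 and 35.6 CPM in the CML libraries and 74.1, 80.9, 124 and 92.4 CPM in the CML-TKI libraries (log2 fold change 0.93 ± 0.25, adjusted p = 0.0436). This call was lost without any 1 of the libraries other than CML-TKI 1 (adjusted p up to 0.129).

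In the serine and one-carbon branch, Mthfd2 was the only one of 5 members to rise and none fell, beside 6.29% of all genes tested called higher and 3.93% lower. Mthfd2, which oxidizes methylene-tetrahydrofolate in mitochondria and lies on chromosome 6 from 83305704 to 83326011 of GRCm38, had 15.4, 18.3, 13.9 and 15.8 CPM in CML 1, 2, 3 and 5. It had 86, 85.8, 30.7 and 52.8 CPM in CML-TKI 1 to 4. Every CML-TKI library was above every CML library, with means of 15.9 ± 1.84 CPM in CML LSCs and 63.8 ± 27.1 CPM in CML-TKI LSCs (SD, n = 4 each). The test gave a log2 fold change 2.02 ± 0.35, adjusted p = 0.00662 (edgeR, Benjamini-Hochberg). This call held with each library left out in turn (adjusted p up to 0.0333), but not with CML 1 to 3 summed (adjusted p = 0.146). Of 8 mitosis genes 4 rose as well, with a summed level of 509 to 1490 CPM in CML and 1933 to 2843 CPM in CML-TKI. Within CML-TKI this sum was lowest in CML-TKI 1, where Mthfd2 was highest. The part of the mitosis genes in the change of Mthfd2 was not tested.

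The 3 enzymes that make serine from a glycolytic intermediate gave different patterns. Psat1, the transaminase of the middle step, had 138, 132, 118 and 130.2 CPM in the CML libraries and 285, 201, 182 and 157 CPM in the CML-TKI libraries. The groups did not overlap, yet the adjusted p missed the threshold (log2 fold change 0.67 ± 0.22, adjusted p = 0.0884), and DESeq2 called it (adjusted p = 0.0317). Psph, the phosphatase of the last step, had 12.8, 11.4, 13.3 and 20.1 CPM in the CML libraries and 35.5, 3.41, 1.10 and 3.90 CPM in the CML-TKI libraries. CML-TKI 1 was above and CML-TKI 2 to 4 were below every CML library (log2 fold change -0.32 ± 0.84, adjusted p = 0.851), and without CML-TKI 1 Psph was lower in CML-TKI LSCs (adjusted p = 0.0159 at -2.22 on the log2 scale). Phgdh, the first and committed enzyme, had 171, 176, 155 and 264 CPM in the CML libraries and 222, 172, 140.3 and 83.5 CPM in the CML-TKI libraries, with overlapping groups. Shmt2, which passes the serine carbon to folate in mitochondria, had 106, 101, 87.9 and 169 CPM in the CML libraries and 154, 169, 135 and 93.9 CPM in the CML-TKI libraries. Its groups overlapped as well (log2 fold changes of Phgdh and Shmt2 -0.31 and 0.25, adjusted p = 0.584 and 0.613). Among 15 other serine, glycine and one-carbon genes tested, none rose and 1 fell, near the shares over all genes (6.29% and 3.93%). It was Aldh1l1, the cytosolic counterpart of Aldh1l2, with 27.4, 20.8, 23.6 and 40.1 CPM in the CML libraries and 6.46, 6.82, 13.2 and 4.16 CPM in the CML-TKI libraries (log2 fold change -1.94 ± 0.43, adjusted p = 0.0203). The call of Aldh1l1 was lost without CML 1, CML 3 or CML 5 (adjusted p up to 0.0712).

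The 2 proline synthesis enzymes went in opposite directions without a call. Aldh18a1, which makes the common precursor of proline and ornithine, had 165, 156, 154 and 172 CPM in the CML libraries and 141, 87.4, 80.0 and 105 CPM in the CML-TKI libraries. All treated libraries were below the CML libraries (log2 fold change -0.64 ± 0.22, adjusted p = 0.0992 by edgeR). It was called lower without CML-TKI 1 (adjusted p = 0.0159 at -0.83 on the log2 scale) and by DESeq2 and limma-voom (adjusted p = 0.0305 and 0.0294). Pycr1, the mitochondrial reductase of the last step, had 3.0, 4.05, 3.29 and 5.36 CPM in the CML libraries and 16.1, 2.79, 16.4 and 5.20 CPM in the CML-TKI libraries, high in CML-TKI 1 and 3 (log2 fold change 1.34 ± 0.66, adjusted p = 0.237). Of 5 other proline genes, none rose and 1 fell, beside 6.29% of all genes tested called higher and 3.93% lower. It was Prodh, the first enzyme of proline breakdown, with 34.2, 45.6, 43.7 and 53.3 CPM in the CML libraries and 14.6, 13.6, 26.3 and 21.3 CPM in the CML-TKI libraries (log2 fold change -1.24 ± 0.30, adjusted p = 0.0300). Prodh lost its call without CML 1, 2, 3 or 5 or CML-TKI 2 (adjusted p up to 0.0945).

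Among the transporters the single gene that fell over all 8 libraries was Slc43a1, a carrier of large neutral amino acids, with 67.7, 67.7, 58.9 and 91.6 CPM in the CML libraries and 17.3, 21.4, 19.7 and 46 CPM in the CML-TKI libraries (log2 fold change -1.44 ± 0.35, adjusted p = 0.0283). Its call was lost without any 1 library other than CML-TKI 1 and CML-TKI 4 (adjusted p up to 0.0785). Slc7a11, the cystine importer, had a positive value that missed the threshold (adjusted p = 0.0869 at a log2 fold change of 1.67), and Slc7a5, which imports leucine, was not called (adjusted p = 0.437 at a log2 fold change of 0.39).

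The cytosolic tRNA synthetase genes had mostly positive changes in CML-TKI LSCs, with 15 positive and 5 negative values among 20 genes, a median log2 fold change of 0.49, and 3 genes that rose against none that fell. Over all genes tested the median was -0.00026, and edgeR called 6.29% higher and 3.93% lower. DESeq2 called 4 of the 20 higher and 1 lower, beside 9.89% and 8.60%, and limma-voom 3 and 0, beside 10.5% and 11.0%. Without CML-TKI 1 the median was 0.25 and the same 3 genes were called. Cars, which charges cysteine tRNA and lies on chromosome 7 from 143557230 to 143600090, had 15.7, 17.2, 17.8 and 18.1 CPM in CML 1, 2, 3 and 5. It had 48.8, 39.7, 37.3 and 26.5 CPM in CML-TKI 1 to 4. All 4 treated libraries exceeded the CML libraries (log2 fold change 1.15 ± 0.28, adjusted p = 0.0288 by edgeR with Benjamini-Hochberg adjustment). Nars, the asparagine enzyme, on chromosome 18 from 64499655 to 64516515, had 58.3, 56.6, 59.3 and 45.8 CPM in the CML libraries and 105, 103, 116 and 78.6 CPM in the CML-TKI libraries, and the groups did not overlap (log2 fold change 0.87 ± 0.21, adjusted p = 0.0277). Farsb, the beta subunit of the phenylalanine enzyme, on chromosome 1 from 78417958 to 78488897, had 51.7, 54.8, 50.6 and 33.5 CPM in the CML libraries and 94.2, 122, 101 and 78 CPM in the CML-TKI libraries. Again the groups did not overlap (log2 fold change 1.05 ± 0.24, adjusted p = 0.0224). In Nars and Farsb it was CML-TKI 3 and CML-TKI 2, not CML-TKI 1, that held the highest level.

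These 3 calls were close to the threshold. Each of the fits without CML 1, CML 2, CML 3 or CML-TKI 2 lost all of them, and the fit without CML 5 lost Cars and Nars, with adjusted p up to 0.111 for Cars, 0.0904 for Nars and 0.0712 for Farsb. Scaling by total counts without Rn45s gave an adjusted p of 0.0521 for Cars, and with CML 1 to 3 summed the values were 0.333, 0.268 and 0.202. Farsa, the alpha subunit that forms an enzyme with the product of Farsb, was not called and had a value near 0 (log2 fold change -0.06 ± 0.28, adjusted p = 0.917), with 57.2, 58.7, 52.8 and 90.3 CPM in the CML libraries and 76.2, 54.9, 40.6 and 74.7 CPM in the CML-TKI libraries. The difference between the subunits' changes was not tested.

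Tars, the threonine enzyme, had the largest log2 fold change of the synthetases without a call. It had 41.9, 41.7, 33 and 26.9 CPM in the CML libraries and 167, 58.3, 53.7 and 46.3 CPM in the CML-TKI libraries. The groups did not overlap, but CML-TKI 1 was far above the others (log2 fold change 1.19 ± 0.42, adjusted p = 0.104), and without it the value was 0.55 (adjusted p = 0.173). Aars and Gars, for alanine and glycine, had 174, 114, 70.1 and 86.1 CPM and 292, 143, 172 and 108 CPM in CML-TKI 1 to 4, with CML-TKI 1 again highest, against 70.5, 65, 65.3 and 78.9 CPM and 124, 126, 105 and 89.4 CPM in CML (log2 fold changes 0.68 and 0.69, adjusted p = 0.167 and 0.192). Sars, for serine, had 52.8, 48.1, 45.2 and 61.3 CPM in the CML libraries and 140.0, 50.2, 36.2 and 80.4 CPM in the CML-TKI libraries (adjusted p = 0.375 at a log2 fold change of 0.58). Rars, Lars, Eprs, Mars, Iars and Yars, for arginine, leucine, glutamate with proline, methionine, isoleucine and tyrosine, were also at their highest in CML-TKI 1, at 56.2, 169, 246, 172, 204 and 89.3 CPM, and had log2 fold changes of 0.73, 0.58, 0.45, 0.39, 0.34 and 0.30 (adjusted p from 0.160 to 0.582). Hars and Kars, for histidine and lysine, were highest in CML-TKI 3 (log2 fold changes 0.54 and 0.24, adjusted p = 0.350 and 0.510).

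A few synthetases lay on the other side. Vars, for valine, which had the highest level per kb of exon among the 33 members in CML (121 CPM per kb), had 492, 434, 428 and 652 CPM in the CML libraries and 300.3, 345, 293 and 409 CPM in the CML-TKI libraries. Every treated library was below every CML library without passing the threshold (log2 fold change -0.57 ± 0.22, adjusted p = 0.126), and DESeq2 called it lower (adjusted p = 0.0405). Wars, for tryptophan, had 87.3, 84, 80.4 and 87.4 CPM in the CML libraries and 76.4, 47.7, 69 and 71.8 CPM in the CML-TKI libraries, also without overlap (log2 fold change -0.36 ± 0.21, adjusted p = 0.321). Dars and Qars, for aspartate and glutamine, were near 0 on the log2 scale (-0.09 and -0.05, adjusted p = 0.855 and 0.916).

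The mitochondrial tRNA synthetases and the mitochondrial amidotransferase, encoded by separate genes, gave 0 calls among 20 genes tested by edgeR, beside 6.29% of all genes called higher and 3.93% lower. Before adjustment, 0 were higher and 2 lower at p under 0.05, beside 13.7% and 12.1%. The median log2 fold change was 0.026, and none of the 20 was at its highest in CML-TKI 1, beside 16.1%. The difference from the cytosolic genes was not tested. Among 8 genes of the synthetase complex scaffold and of elongation factors, there were also 0 calls, and 0 at an unadjusted p under 0.05, with a median of -0.028. DESeq2 and limma-voom made 0 calls in both lists as well.

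The weight of CML-TKI 1 was also seen when it was left out of the fit. Among 12147 genes then tested, 9.64% were called higher and 11.0% lower, and of the members 4 were higher and 3 lower. The higher ones were again Mthfd2, Cars, Nars and Farsb, with log2 fold changes of 1.85, 0.99, 0.84 and 1.07 (adjusted p = 0.00640, 0.0348, 0.0270 and 0.0181 by edgeR with Benjamini-Hochberg adjustment). The lower ones were Trib3, Psph and Aldh18a1. The median over the members was 0.19, against 0.42 with all libraries. The 4 higher members moved by less than their standard errors between the fits, and the values of Atf4, Asns, Sars, Mars and Tars moved toward or below 0, to -0.33, -0.05, 0.12, 0.09 and 0.55.

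**Figure D4:**
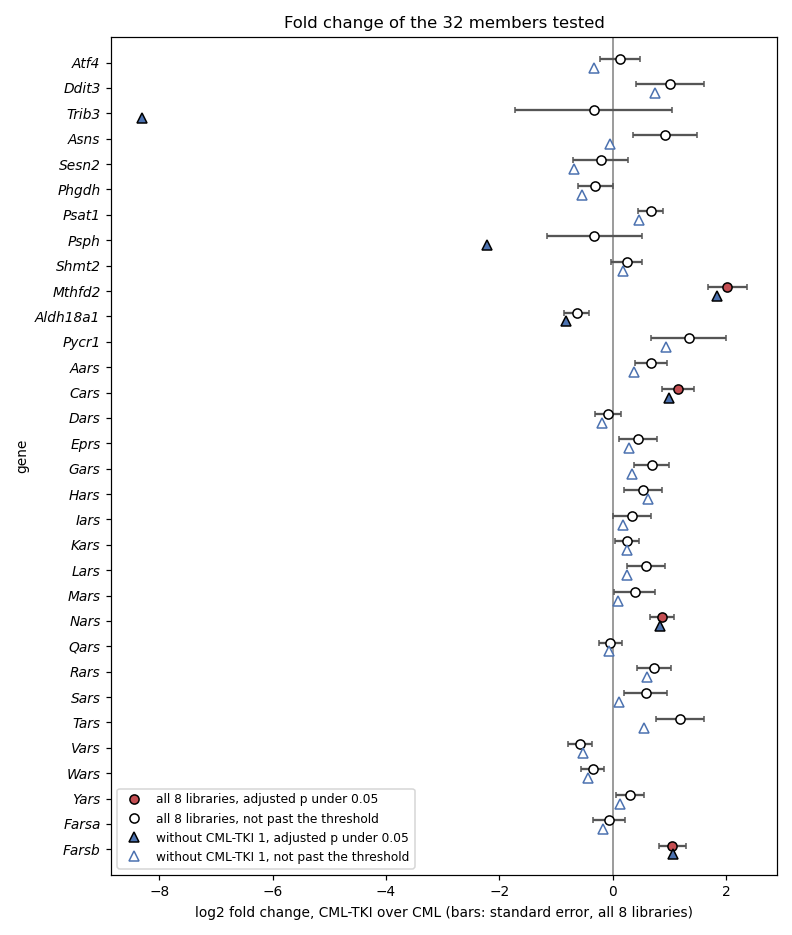
Log2 fold change (CML-TKI over CML, horizontal axis) of the 32 members tested, with all 8 libraries (circles, bars are 1 standard error) and without CML-TKI 1 (triangles), filled where the adjusted p was under 0.05. Mthfd2, Cars, Nars and Farsb are filled in both fits, while Trib3, Psph and Aldh18a1 are filled, and lower, only without CML-TKI 1, and the fitted value of Trib3 there rests on 0 counts and is no measure of size.

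Promoters were searched for a form of the C/EBP-ATF response element to which ATF4 binds with a C/EBP partner, spelled TGATGNAA on either strand (TTNCATCA in the reverse complement). No other motif was searched. RefSeq promoter sequences of GRCm38.p6, from 250 bases before to 50 bases after the start of the gene, were matched by symbol for 25 of the 33 members. The motif occurred in 9 of these 25 genes (36%), and in 1219 of 27025 genes in the whole table (4.51%). It occurred in 3 of 6 genes of the ATF4 group, 0 of 5 serine and one-carbon enzymes, 1 of 2 proline enzymes and 5 of 12 synthetases. The matches of 6 genes are shown within 30 bases of the coding strand, 5′ to 3′, with the motif in capitals. The letters in capitals are alike because they were searched for.
Chac1: cttccctgccgTTGCATCActcctgccagg
Trib3: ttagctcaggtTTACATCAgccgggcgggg
Asns: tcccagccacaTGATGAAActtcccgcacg
Tars: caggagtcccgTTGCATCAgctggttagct
Gars: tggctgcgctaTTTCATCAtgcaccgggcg
Pycr1: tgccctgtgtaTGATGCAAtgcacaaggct
These lie at chr2:119351038-119351067 (+ strand) for Chac1, chr2:152344028-152344057 (- strand) for Trib3, chr6:7693214-7693243 (- strand) for Asns, chr15:11399655-11399684 (- strand) for Tars, chr6:55037960-55037989 (+ strand) for Gars and chr11:120643833-120643862 (- strand) for Pycr1. The motif began 193 bases before the start in Chac1, 23 in Asns, 15 in Tars, 30 in Gars and 103 in Pycr1, and after the start in Trib3. Asns and Pycr1 read the forward form and all other windows shown the reverse complement. Aars, Iars and Yars also had a match.

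Of the 8 tested genes with a match, 7 had their highest level in CML-TKI 1 (Pycr1 was highest in CML-TKI 3), as had 7 of the 16 without a match and 16.1% of all genes tested. CML-TKI 1 was singled out after the values of the members were seen, and the difference between these sets was not tested. The median ratio of CML-TKI 1 to the CML mean was 2.96 over the 9 genes with a match, from 1.62 in Yars to the bound of at least 45.2 in Chac1, and 1.67 over the 16 without, from 0.874 in Aldh18a1 to 5.42 in Mthfd2. None of the 8 tested genes with a match was called over the groups, and Mthfd2 and Farsb, which were called, had no match in this window. Cars and Nars, also called, were not searched. A match is a string of letters and not a bound site, and no binding data of ATF4 were used. Psph, also high in CML-TKI 1 alone, had no match, and Mthfd2, which rose in the whole group, was itself highest in CML-TKI 1. As examples only, the bases before the start are given for Chac1, at chr2:119350992-119351241 (+ strand), and for Mthfd2, at chr6:83317605-83317854 (- strand). The motif of Chac1 is in capitals and there are no capitals in Mthfd2.
Chac1: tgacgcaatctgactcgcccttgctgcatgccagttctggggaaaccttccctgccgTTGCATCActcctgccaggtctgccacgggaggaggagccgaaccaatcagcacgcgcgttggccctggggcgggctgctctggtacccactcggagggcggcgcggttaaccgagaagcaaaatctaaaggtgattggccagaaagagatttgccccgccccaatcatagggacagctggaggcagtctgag
Mthfd2: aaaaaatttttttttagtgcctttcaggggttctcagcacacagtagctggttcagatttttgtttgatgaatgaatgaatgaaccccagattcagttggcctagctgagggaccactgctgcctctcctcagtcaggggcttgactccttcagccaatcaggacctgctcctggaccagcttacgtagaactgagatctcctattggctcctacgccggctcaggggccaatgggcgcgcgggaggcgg
The starts used for Mthfd2, Eprs, Psph and Farsa, and for Aars and Yars among the genes with a match, lie inside the spans of these genes. The absence of these letters from the window of Mthfd2 says nothing of other starts or of sites outside it.

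**Figure D5:**
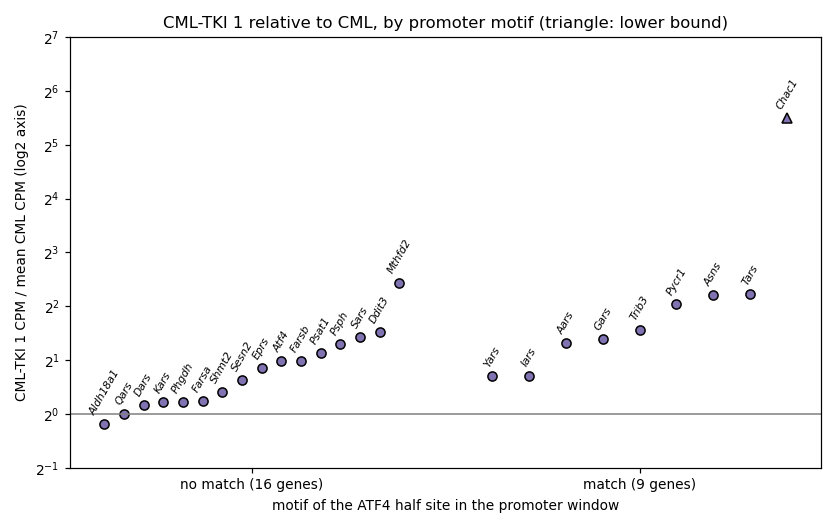
Ratio of the CPM in CML-TKI 1 to the mean CML CPM (log2 axis) for the 25 members whose promoter was searched, without (left, 16 genes) and with (right, 9 genes) a match to the ATF4 motif, each point 1 gene. All 9 genes with a match and 14 of the 16 without lie above 1, and Chac1 is drawn as a triangle at its lower bound of 45.2 because the CML libraries held at most 2 counts.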

How the data were processed

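Bulk RNA-seq of 4 CML and 4 CML-TKI LSC libraries was analysed. Per the study's methods and the submitters' processing notes, the authors built the libraries with Nextera XT, mapped read pairs against mm10 using STAR 2.6.1d and quantified RefSeq transcripts in Partek 8.0. The deposited values are unnormalized estimated counts of each gene. Strand and the treatment of reads from close copies are not given in the sources used here.

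The estimated counts were rounded and fitted on the whole table in R 4.3.3 with edgeR 4.0.16 (TMM, filterByExpr with minimum count 10 and minimum total 15, robust quasi-likelihood test, Benjamini-Hochberg adjustment, threshold 0.05). Standard errors are the log2 fold change over the root of F. The sample descriptions name 1 column for several samples, so columns were matched to the titles by group and number. The number of CML 5 is in no title, so that column was assigned to its group only, and 0 columns belonged to other samples. Alternatives were DESeq2 1.42.0, limma 3.58.1 voom with quality weights, RLE and total counts without Rn45s, 2 other filters, a replicate block, each library left out and CML 1 to 3 summed. The scripts were checked on simulated counts.

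The members and lists were chosen with earlier results of these data known. All 33 members are named, with values per library for those past the threshold and for Atf4, Ddit3, Trib3, Asns and Chac1. Of each further pathway list the genes past the threshold are named, at most 4, and Slamf1, Cd48 and Kit check the sort. Other genes named, and the values of other members per library, were chosen after their values were seen. Coordinates and promoters are from RefSeq (GRCm38), and Mars had no entry in it. 1 of the sequences is not reported here. K562, ChIP-seq, protein and metabolite data were not analysed here.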

Additional observations from a re-analysis of the deposited data

Results flagged for a closer look

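Among 82 groups of 4 libraries, 9 had 1 library far from the other 3 by Dixon's ratio, where chance gives about 1 in 20 groups. The shares over all genes tested, given beside each library, were above that for CML-TKI 1 and CML 5, so the 9 are not read as an excess. In 4 of them CML-TKI 1 was the high library: Chac1 at 26.2 CPM (0 to 1.86 in the others), Trib3 at 24.9 CPM (0 in the others), Psph at 35.5 CPM (1.10 to 3.90) and Tars at 167 CPM (46.3 to 58.3). Over all genes tested, 5.45% had CML-TKI 1 as such a high library. CML 5 was high for Cebpb at 31.6 CPM (9.28 to 12.9 in the other CML libraries) and Farsa at 90.3 CPM (52.8 to 58.7), and low for Lars at 48.0 CPM (75.2 to 78.9), beside 6.81% of all genes tested with CML 5 so high and 6.53% with it so low. CML-TKI 3 was high for Hars at 52.6 CPM (22.9 to 27.8), and CML-TKI 4 for Slc43a1 at 46.0 CPM (17.3 to 21.4), beside 2.76% and 0.846% of all genes tested. Cebpb kept its call without CML 5, and Slc43a1 without CML-TKI 4.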

How the results depend on the processing

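Of 731 values of single genes under the alternatives, 631 kept their direction and side of the threshold, 68 lost the call, 10 gained it and 22 changed sign, in 9 genes. Under total counts without Rn45s the median over all genes shifted to -0.14 (log2), and the synthetase median was 0.35. Genes called numbered 1220 (751 higher, 469 lower), 2157 with DESeq2 (1154 and 1003), 2563 with limma-voom (1249 and 1314), 122 with CML 1 to 3 summed (102 and 20), and 505 to 2504 (364 to 1171 and 141 to 1333) with each library left out, highest without CML-TKI 1 and lowest without CML 1. Members called numbered 4 higher and 0 lower, 0 and 0 with CML 1 to 3 summed, 1 to 5 and 0 to 3 with each library left out, 6 and 2 with DESeq2, and 4 and 2 with limma-voom. Members highest in CML-TKI 1 numbered 18, also under RLE, and 19 under total counts without Rn45s, both chosen after seeing the data. For the changes by tool, the cause was not tested.

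In a paired analysis, the replicate block of CML and CML-TKI 1 to 3 called 193 genes (150 higher, 43 lower) and 0 members, against 589 (400 and 189) and 4 higher members in the same 6 libraries unpaired. Deviations of same-numbered libraries correlated at -0.022, 0.15 and 0.091, so the numbers were not taken to pair the libraries. The signs changed, with uncalled values, in Phgdh (0.082 in the block, 0.11 in the 6 libraries unpaired), Qars (0.079 and 0.087), Trib3, Psph and Farsa (0.18, 0.18 and 0.050 in the 6 libraries unpaired), Farsa with limma-voom (0.18), and Atf4 and Dars with CML 1 to 3 summed (-0.012 and 0.0010). With each library left out the log2 fold change ranged from -0.33 to 0.33 for Atf4, -8.31 to 0.091 for Trib3, -0.051 to 1.22 for Asns, -0.68 to 0.025 for Sesn2, -2.22 to 0.012 for Psph, -0.20 to 0.018 for Dars, -0.16 to 0.034 for Qars and -0.18 to 0.13 for Farsa. Depth limited genes under 3.29 CPM in CML-TKI 3.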

Other observations

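Marker lists of other cells also differed between single CML-TKI libraries. The summed level of 7 erythroid genes was 31624 CPM in CML-TKI 3, nearly all of it hemoglobin, against 55.2 to 501 CPM in the other CML-TKI libraries and 142 to 240 CPM in CML, and the 6 genes tested gave 0 calls by edgeR, with 2 higher and 1 lower at an unadjusted p under 0.05, 0 by DESeq2 and 1 lower by limma-voom. The summed level of 5 mast cell and basophil genes was 1164 CPM in CML-TKI 4, 118 CPM in CML-TKI 1, 204 CPM in CML-TKI 2 and 4.38 CPM in CML-TKI 3, against 2.06 to 4.05 CPM in CML, with 1 of 1 tested gene called higher. Of 7 megakaryocyte genes 2 were lower, with 1375 to 1677 CPM in CML and 60.7 to 833 CPM in CML-TKI. CML-TKI 1 had 62.9 CPM of the erythroid and 341 CPM of the megakaryocyte genes. 6 B cell, 5 T and NK cell and 4 endothelial genes had 16.9 to 250, 11.4 to 136 and 43.3 to 114 CPM in CML-TKI, and 18.0 to 23.2, 15.2 to 31.2 and 83.2 to 193 CPM in CML. Of these lists 1 gene, endothelial Cdh5, was called, and it was lower.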
